A study of Mus musculus with 18 samples.

Results

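Glucose, glycolysis and lactate genes were described here in the mouse left ventricle (LV), as 32 genes chosen by symbol: 2 glucose carriers and 2 hexokinases, 10 genes of upper glycolysis and its regulators, 7 of lower glycolysis, 4 of lactate interconversion and transport, 4 of pyruvate dehydrogenase and its kinases and 3 of glycogen. All 32 were found among the 51435 genes of the files, and all 32 were among the 24804 genes tested for a difference between genotypes. RNA-sequencing (RNA-seq) had been performed on poly(A) RNA from the LV of 18 mice, 9 wild type (WT) and 9 WWP2Mut/Mut (labelled KO). WWP2Mut/Mut mice are homozygous for a CRISPR/Cas9 deletion of 4 bp in exon 2 of Wwp2, made on a C57BL/6J background. The study designed the frame shift to inactivate the full-length and N-terminal isoforms of this E3 ubiquitin ligase and considered an effect on the C-terminal isoform improbable. Its western blots showed both proteins to be missing in mutant mice, and it reported the C-terminal protein in the heart as unaffected. Mutant and WT mice came from crosses of heterozygotes. All 18 mice had received angiotensin II (AngII), a peptide hormone that raises blood pressure, at 500 ng/kg/min for 28 days from a subcutaneous minipump placed at 8 weeks of age. No library of an untreated mouse was analysed here, so that the values describe the AngII-treated heart and the comparison is between genotypes under treatment.

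As background, the adult heart takes up glucose mainly through GLUT4 and phosphorylates it with hexokinase. Glycolysis then splits the sugar to pyruvate, which is either reduced to lactate by lactate dehydrogenase or enters the mitochondrion, where the pyruvate dehydrogenase complex converts it to acetyl-CoA under the control of inhibitory kinases. Most steps have several isozymes encoded by different genes, and adult cardiac muscle is known to use the muscle or heart form at many of them while most other cell types use the widely expressed form. Glycogen is the stored form of glucose, built by glycogen synthase and broken down by glycogen phosphorylase. Hypertrophied hearts are known to rely more on glucose than healthy adult hearts do, which is why these genes are of interest after AngII.

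The promoter sequences of the lactate dehydrogenase pair are shown because these isozymes catalyse the same reaction. Their counts also rose and fell together across mice, as described further on, while their promoters differ in the letters ACGTG. These letters are a form of the core of the motif bound by hypoxia-inducible factors, and other forms were not searched. Windows of 300 bases around a start annotated in RefSeq were taken on GRCm38.p6, on the strand of the gene and in 5′ to 3′ direction. The gene limits given further on come from another annotation, GENCODE M21. By those limits the Ldha window lies inside the gene, and the windows of Pgam2, Pfkfb1 and Pgam1 do not reach it. ACGTG was searched on both strands, so that CACGTG, which reads the same on both, counted as 2 overlapping matches. Capitals mark the matches. The Ldha window (chr7:46845554-46845853, plus strand) held 5 matches, of which 4 lay in 2 copies of CACGTG. The Ldhb window (chr6:142507908-142508207, minus strand) held 0.
Ldha: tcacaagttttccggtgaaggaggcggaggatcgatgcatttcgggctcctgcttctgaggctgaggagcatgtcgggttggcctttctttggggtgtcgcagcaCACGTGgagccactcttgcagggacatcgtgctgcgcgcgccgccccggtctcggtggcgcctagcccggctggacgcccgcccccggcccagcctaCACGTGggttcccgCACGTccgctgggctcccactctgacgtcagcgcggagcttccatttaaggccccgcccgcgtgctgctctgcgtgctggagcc
Ldhb: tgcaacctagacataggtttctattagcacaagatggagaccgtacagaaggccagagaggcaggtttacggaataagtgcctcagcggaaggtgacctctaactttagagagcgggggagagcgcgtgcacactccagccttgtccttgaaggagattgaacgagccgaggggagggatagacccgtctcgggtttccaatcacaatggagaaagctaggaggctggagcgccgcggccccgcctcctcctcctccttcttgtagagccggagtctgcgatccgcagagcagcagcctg
A window was found for 31 of the 32 genes, the exception being Slc2a4, and the window listed at the top was used for the 12 genes with several. Of the 31 windows, 16 (51.6%) held the letters, against 19.7% of the 27025 genes with a window. Among windows with a GC content of at least 50%, it was 15 of 29, against 23.95% of 16274 genes. After Ldha the most matches were the 3 of Pfkm, the muscle phosphofructokinase, and the 3 of Slc16a1, the lactate carrier MCT1. The windows of Eno3, Pgam2, Aldoa, Pkm, Pdk1 and Gys1 held 0, as did those of Eno1, Tpi1, Gpi1, Hk1, Pfkl, Pfkp, Pfkfb1 and Pdha1. A match describes these letters in this window and was not tested for binding.

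The libraries held between 24567000 and 37451100 expected counts (rounded) of nuclear genes, and library size did not separate the genotypes (two-sided exact permutation test, p = 0.456). Each of the 4 sequencing lanes held mice of both genotypes. RNA concentration was higher in WWP2Mut/Mut mice (175 ± 73.6 ng/µl) than in WT mice (110 ± 51.5 ng/µl, SD, n = 9 each, exact permutation p = 0.0422) and was a covariate in the test. Mouse 43-3 of the WT group had a listed RNA concentration of 1.68 ng/µl, far below the 88.6 to 320.9 ng/µl of the others, and whether that entry is right could not be checked here. Without this mouse the WT mean was 123.6 ± 33.8 ng/µl (n = 8) and the difference did not pass the threshold (exact permutation p = 0.0872). The authors also listed for each mouse a fraction whose header names the bottom-half section of the gene body. Its definition is not stated in the sources used here, and it is called bottom-half coverage below, with coverage as the short form, since it does not give the coverage of the whole gene body. It ran from 0.0288 to 0.0540 and did not separate the genotypes (exact permutation p = 0.720). Wwp2 itself was lower in WWP2Mut/Mut mice, at 1.19 to 3.00 TPM (median 1.58) against 3.83 to 6.01 TPM in WT mice (median 5.10), and the 2 ranges did not overlap (log2 fold change -1.40, SE 0.157, adjusted p = 0.00113). The summed TPM of 11 cardiomyocyte markers was 49336 to 62430 in WT and 47585 to 59989 in WWP2Mut/Mut mice, and no gene of that list differed at an unadjusted p below 0.05. Of 12 skeletal muscle markers, the fast myosin Myh4 was at 0 TPM in all 18 mice and the fast troponin Tnnt3 lay between 0.17 and 0.90 TPM. The list summed to 31.5 to 104 TPM in WT (median 74.1) and 31.8 to 87.5 TPM in WWP2Mut/Mut mice (median 46.5), 4 of its genes were above 1 TPM in the mean, and 8 of the 11 tested had a lower estimate in WWP2Mut/Mut mice. Most of that sum was Myh7, the slow myosin that ventricular muscle also expresses, at 19.04 to 88.5 TPM, followed by Mybpc2 at 4.75 to 13.85 TPM, Tnni2 at 1.29 to 4.51 TPM and Mylpf at 0.84 to 2.46 TPM. Of the 11 marker lists none held a called gene, and the lists of smooth muscle, immune and adipocyte markers held 1 gene each with an unadjusted p below 0.05, the liver list 10 and the other 7 held 0. Estimates were lower in WWP2Mut/Mut mice for 8 of 9 fibroblast, 7 of 7 adipocyte, 10 of 10 liver and 4 of 5 hypertrophic stress markers. Of all genes, 51.9% were lower. Estimates were higher for 5 of 6 erythrocyte, 4 of 5 atrial, 5 of 7 smooth muscle and 5 of 8 immune markers. The numbers lower were 6 of 11 for cardiomyocyte and 3 of 7 for endothelial markers. Of the 7 adipocyte markers 1 was above 1 TPM in the mean, and WT mouse 45-1 held their highest sum, 23.65 TPM (WT median 1.66). In bulk tissue, fewer cells of a type and less RNA per cell cannot be told apart.

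Levels of different genes were compared as TPM, a measure of transcripts that corrects for transcript length and library size. The 32 genes together made up between 1.301% and 1.67% of the TPM of the listed genes in each mouse. Gapdh, the glyceraldehyde-3-phosphate dehydrogenase, was the most abundant in all 18 mice, at 2919 ± 254 TPM in WT and 2870 ± 266 TPM in WWP2Mut/Mut mice (SD, n = 9 each). Aldoa, the muscle aldolase, followed with 1820 ± 120 and 1659 ± 111 TPM, and Ldhb, the heart subunit of lactate dehydrogenase, with 1358 ± 159 and 1339 ± 188 TPM, each in its place in the order in 17 of 18 mice. Pgam2, the muscle phosphoglycerate mutase, and Eno3, the muscle enolase, came next, with mean levels over all mice of 835 and 811 TPM that lay within each other's spread. These 5 genes held 67.8% of the TPM of all 32.

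At the entry to the pathway levels were lower. Slc2a4, which encodes GLUT4, was at 136 ± 25.8 TPM in WT and 127 ± 25.01 TPM in WWP2Mut/Mut mice, and Slc2a1, which encodes the basal carrier GLUT1, at 4.37 ± 0.93 and 4.25 ± 0.70 TPM. The kinases of the committed steps were also far below the aldolase that follows them, with Pfkm at 247 ± 52.2 and 229 ± 45.5 TPM. Mean levels over all mice exceeded 100 TPM for 17 genes, lay between 10 and 100 TPM for 10 and between 1 and 10 TPM for 3. The other 2 were Slc16a3 (0.73 TPM), which encodes the lactate exporter MCT4 of glycolytic tissues, and Aldoc (0.13 TPM), the brain aldolase. Near-identical copies, mostly processed pseudogenes, were found for 13 of the 32 genes, and the share of the joint counts assigned to the copies was 3.76% for Gapdh with its 92 copies, 2.73% for Pgk1, 1.56% for Pgam1, 1.43% for Eno1 and below that for the other 9. The most abundant copies were the Gapdh pseudogenes Gm7336 (35.1 TPM), Gm10359 (32.8 TPM) and Gm12671 (21.6 TPM).

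The remaining genes are given by their TPM range in each genotype. Slc2a1, the basal glucose carrier, lay between 3.21 and 5.74 TPM in WT and between 3.18 and 5.21 TPM in WWP2Mut/Mut mice. Hk1, the constitutive hexokinase, lay between 18.9 and 50.9 TPM in WT and between 22.1 and 43.3 TPM in WWP2Mut/Mut mice. Phosphofructokinase catalyses the committed step of glycolysis. Gpi1, which isomerizes glucose-6-phosphate, lay between 249.6 and 384 TPM in WT and between 244 and 326 TPM in WWP2Mut/Mut mice. Pfkm, the muscle phosphofructokinase, lay between 161 and 333 TPM in WT and between 182 and 293 TPM in WWP2Mut/Mut mice. Pfkl, the liver phosphofructokinase, lay between 16.5 and 36.02 TPM in WT and between 15.8 and 27.9 TPM in WWP2Mut/Mut mice. The fructose-2,6-bisphosphate enzymes set the activity of phosphofructokinase. Pfkfb1, their liver and muscle form, lay between 2.12 and 5.58 TPM in WT and between 1.78 and 3.94 TPM in WWP2Mut/Mut mice. Pfkfb3, their inducible form, lay between 0.97 and 1.68 TPM in WT and between 0.74 and 2.10 TPM in WWP2Mut/Mut mice. Aldoc, the brain aldolase, lay between 0.05 and 0.27 TPM in WT and between 0.03 and 0.25 TPM in WWP2Mut/Mut mice. Phosphoglycerate kinase and pyruvate kinase catalyse the steps that make ATP. Pgk1, the phosphoglycerate kinase, lay between 142 and 259.5 TPM in WT and between 132 and 210.5 TPM in WWP2Mut/Mut mice. Pkm, the pyruvate kinase of muscle, lay between 314 and 522 TPM in WT and between 347 and 473 TPM in WWP2Mut/Mut mice. Pgam2, the muscle phosphoglycerate mutase, lay between 689 and 985 TPM in WT and between 633 and 927 TPM in WWP2Mut/Mut mice. Enolase has a widely expressed and a muscle gene. Eno1, the widely expressed form, lay between 58.2 and 97.1 TPM in WT and between 60.1 and 89.6 TPM in WWP2Mut/Mut mice. Eno3, the muscle form, lay between 698 and 986 TPM in WT and between 687 and 892 TPM in WWP2Mut/Mut mice. Slc16a3, the lactate exporter MCT4, lay between 0.39 and 1.25 TPM in WT and between 0.42 and 1.08 TPM in WWP2Mut/Mut mice. Pyruvate dehydrogenase is switched off by its kinases. Pdha1, the alpha subunit that they phosphorylate, lay between 133 and 366 TPM in WT and between 132 and 339 TPM in WWP2Mut/Mut mice. Pdk1, a kinase induced by hypoxia, lay between 10.8 and 28.99 TPM in WT and between 10.3 and 30.6 TPM in WWP2Mut/Mut mice. Pdk2, the widely expressed kinase, lay between 107 and 204 TPM in WT and between 111 and 182 TPM in WWP2Mut/Mut mice. Glycogen is built and broken down by different enzymes. Gys1, the muscle glycogen synthase, lay between 10.6 and 36.3 TPM in WT and between 12.1 and 35.1 TPM in WWP2Mut/Mut mice. Pygb, the brain glycogen phosphorylase, lay between 60.4 and 199 TPM in WT and between 72.9 and 178 TPM in WWP2Mut/Mut mice. The ranges of the genotypes overlapped for each of these genes.

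**Figure D1:**
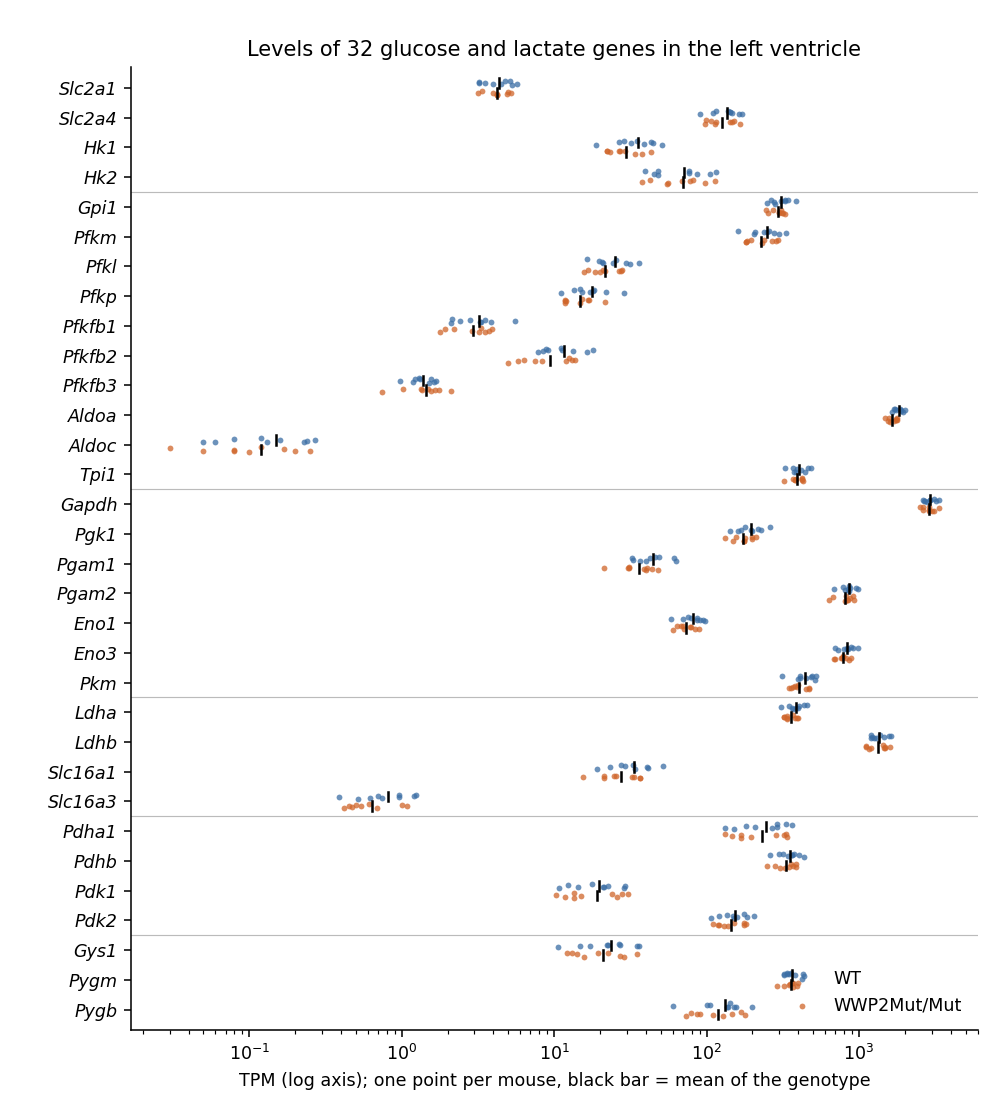
TPM of the 32 genes (horizontal log axis) in each of the 18 mice, with genes on the vertical axis grouped by step from glucose entry at the top to glycogen at the bottom, WT mice in blue, WWP2Mut/Mut mice in orange and a black bar at the mean of each genotype. Gapdh lies highest, with means of 2919 TPM in WT and 2870 TPM in WWP2Mut/Mut mice, Aldoc lowest, and the points of the genotypes overlap for every gene.

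For 11 steps the isozymes were expressed as shares of the step's total, computed in each mouse and compared between genotypes with a two-sided exact permutation test adjusted over the 11 steps. At 5 of the 11 steps a single isozyme held more than 9 in 10 of the TPM. Aldoa held 99.99% of aldolase (Aldoa and Aldoc) in WT, Slc16a1 97.6 ± 0.60% of the lactate carriers, Slc2a4 96.9 ± 0.38% of the glucose carriers, Pgam2 94.99 ± 1.18% of phosphoglycerate mutase and Eno3 91.1 ± 1.22% of enolase (SD, n = 9). Pfkm held 85.4 ± 1.80% of phosphofructokinase beside the liver (Pfkl) and platelet (Pfkp) forms.

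Other steps were mixed. Ldhb held 77.7 ± 3.32% of lactate dehydrogenase in WT and 78.8 ± 2.89% in WWP2Mut/Mut mice, the rest being the muscle subunit Ldha. Pygm, the muscle glycogen phosphorylase, held 73.7 ± 6.17% and 75.3 ± 7.38%, with the brain form Pygb at the remainder. Pfkfb2, the heart form of the enzyme that makes the phosphofructokinase activator fructose-2,6-bisphosphate, held 71.1 ± 5.41% and 67.1 ± 7.31% beside Pfkfb1 and Pfkfb3. Pdk1 was the minor kinase of the Pdk1 and Pdk2 pair, at 11.2 ± 2.12% and 11.3 ± 2.35%. Hk1 held 35.2 ± 13.96% of hexokinase in WT and 31.4 ± 11.6% in WWP2Mut/Mut mice, with single mice between 15.2% and 56.5%.

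No share differed between genotypes beyond the spread between mice. The largest differences were those of Pfkfb2, at -4.03 percentage points in WWP2Mut/Mut against WT mice (exact permutation p = 0.207), and of Hk1, at -3.83 percentage points (exact permutation p = 0.529), and the adjusted p was 0.80 or more at all 11 steps. With each mouse left out in turn, the difference lay between -5.03 and -2.02 percentage points for Pfkfb2 and between -6.33 and -1.17 for Hk1. With shares centred within lanes, it was -3.33 for Pfkfb2 and -3.66 for Hk1. The smallest unadjusted p that this design can give is 4.11e-05. With the expected counts in place of TPM, which ignores length, Hk1 held 44.5 ± 3.56% of hexokinase reads in WT and 42.8 ± 3.15% in WWP2Mut/Mut mice, a narrower spread, and Pdk1 held 23.04 ± 3.82% and 23.2 ± 4.09%. By counts Ldhb held 70.4 ± 1.44% and 70.5 ± 1.60%, and Pygm 62.4 ± 2.56% and 62.4 ± 3.58%, also with narrower spreads than by TPM. The adjusted p was 0.820 or more on that scale.

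**Figure D2:**
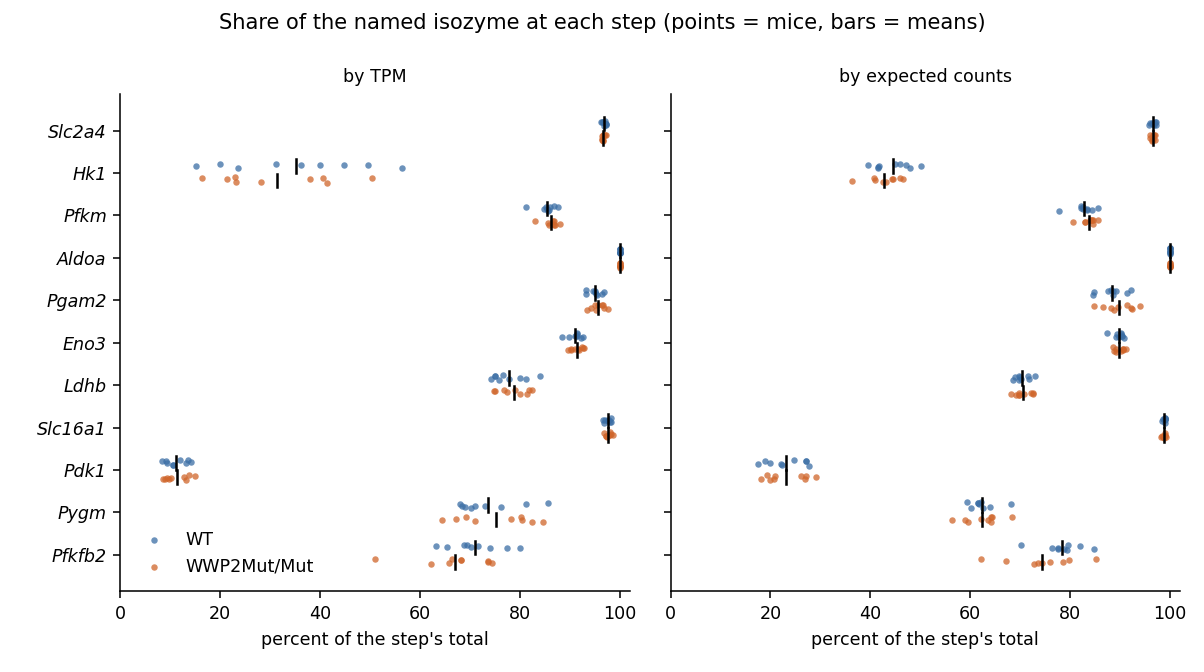
Share of the named isozyme in the total of its step in percent (horizontal axis, from 0) for 11 steps, by TPM on the left and by expected counts on the right, with a point for each mouse and a black bar at the mean of each genotype. The shares of Hk1 spread from 15.2% to 56.5% by TPM and from 36.3% to 50.1% by counts, and WT and WWP2Mut/Mut points overlap at every step.

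Expression of the 32 genes was then compared between genotypes, to ask whether the loss of the full-length and N-terminal WWP2 isoforms went with altered glucose metabolism genes in the AngII-treated heart. None of the 32 passed the test at an adjusted p below 0.05 (edgeR quasi-likelihood test on the expected counts, adjusted over all 24804 genes), where 1 gene of all those tested, Wwp2, was called (0.00403%). None had an unadjusted p below 0.05 either, where 3.66% of all genes did. DESeq2 called 0 of the 32 as well, and 0 at an unadjusted p below 0.05. The estimated differences were small and balanced: 16 genes had a lower and 16 a higher estimate in WWP2Mut/Mut mice, with a median log2 fold change of -0.00028 against -0.01 over all genes, of which 51.9% were lower. The 95% interval of the log2 fold change lay within ±0.5 for 28 of the 32 genes and within ±0.3 for 11, with a median SE of 0.124, and these limits set the size of a difference that could be missed in those genes. On the TPM scale, by contrast, 29 of the 32 genes had a lower estimate in WWP2Mut/Mut mice, with a median of -0.16, and again none was called (limma on log2(TPM + 1)). Of all genes, 73.7% were lower on that scale, against 90.6% of the 32, and their median was -0.04. With a pseudocount of 0.1 in place of 1, which shrinks scarce genes less, the median was -0.11 over all genes and -0.16 over the 32.

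The genes closest to the threshold were, in order of p, Pfkp, Pgam1, Tpi1, Ldha, Slc16a1 and Pfkfb2. Levels of a gene across mice are given for them as CPM, the counts scaled to library size with TMM factors, as in the test. Pfkp, the platelet phosphofructokinase (chr13:6579768-6648777, minus strand), lay between 57.9 and 106 CPM in WT (median 66.9) and between 52.6 and 83.0 CPM in WWP2Mut/Mut mice (median 61.6), with a log2 fold change of -0.21 (SE 0.123, 95% interval -0.47 to 0.04, unadjusted p = 0.0995). The ranges overlapped widely, and the highest value was that of WT mouse 25-3. Pgam1, the widely expressed phosphoglycerate mutase (chr19:41911923-41918660, plus strand), lay between 71.7 and 122 CPM in WT (median 100.04) and 57.3 and 109 CPM in WWP2Mut/Mut mice (median 90.3), with a log2 fold change of -0.16 (SE 0.128, unadjusted p = 0.226).

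Tpi1, the triosephosphate isomerase (chr6:124810586-124814296, minus strand), lay between 624 and 868 CPM in WT (median 809) and 754 and 1013 CPM in WWP2Mut/Mut mice (median 827), with a log2 fold change of 0.13 (SE 0.107, unadjusted p = 0.236). Its lowest value belonged to WT mouse 45-1, and the ranges overlapped. Ldha, the muscle subunit of lactate dehydrogenase (chr7:46841475-46855627, plus strand), lay between 580 and 825 CPM in WT (median 745) and 610 and 904 CPM in WWP2Mut/Mut mice (median 776), with a log2 fold change of 0.12 (SE 0.108, unadjusted p = 0.298). Slc16a1 (chr3:104638668-104658462, plus strand) lay between 139 and 244 CPM in WT (median 194) and 107 and 219 CPM in WWP2Mut/Mut mice (median 178), with a log2 fold change of -0.16 (SE 0.153, unadjusted p = 0.307). Both genes showed overlapping ranges, and the lowest Slc16a1 value was that of WWP2Mut/Mut mouse 52-1. Pfkfb2 (chr1:130689182-130729253, minus strand) lay between 38.1 and 69.0 CPM in WT (median 53.2) and 28.8 and 81.4 CPM in WWP2Mut/Mut mice (median 45.8), with a log2 fold change of -0.17 (SE 0.177, unadjusted p = 0.343). Its highest value was that of WWP2Mut/Mut mouse 52-1, and without that mouse the log2 fold change was -0.36 (unadjusted p = 0.0331), while without WWP2Mut/Mut mouse 53-1 it was -0.07 (unadjusted p = 0.717). The other 5 estimates also rested in part on single mice. The log2 fold change was -0.12 for Pfkp without WT mouse 25-3, -0.05 for Pgam1 and -0.06 for Slc16a1 without WWP2Mut/Mut mouse 52-1, and 0.03 for Tpi1 and 0.05 for Ldha without WWP2Mut/Mut mouse 53-1. Without WT mouse 45-1 it was 0.07 for Tpi1 and 0.06 for Ldha. The adjusted p was 1 for each of the 32 genes.

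The most abundant gene of each role showed the same overlap. Slc2a4 (chr11:69942539-69948188, minus strand) lay between 387 and 450.0 CPM in WT (median 403) and 381 and 474 CPM in WWP2Mut/Mut mice (median 435), with a log2 fold change of 0.03 (SE 0.0907, the smallest SE of the 32). Aldoa (chr7:126795234-126800751, minus strand) lay between 2620.0 and 4010 CPM in WT (median 3334) and 2858 and 3906 CPM in WWP2Mut/Mut mice (median 3202), with a log2 fold change of 0.03 (SE 0.126). The ranges of the genotypes overlapped for both on this scale. By TPM, however, Aldoa was at 1645 to 1999 in WT (median 1846) and 1488 to 1780 in WWP2Mut/Mut mice (median 1692), with a log2 fold change of -0.15 on the log2(TPM + 1) scale, the only gene of the 32 with an unadjusted p below 0.05 in that fit, at an adjusted p of 0.807 (limma).

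Gapdh (chr6:125161715-125166467, minus strand) lay between 3837 and 5419 CPM in WT (median 4572) and 4361 and 5843 CPM in WWP2Mut/Mut mice (median 4413), with a log2 fold change of 0.10 (SE 0.121). Ldhb (chr6:142490249-142507957, minus strand) lay between 1564 and 2028 CPM in WT (median 1779) and 1575 and 2196 CPM in WWP2Mut/Mut mice (median 1760), with a log2 fold change of 0.07 (SE 0.110). For both genes the medians differed by less than the range within either genotype. Pdhb, the beta subunit of the pyruvate dehydrogenase E1 enzyme (chr14:8165996-8173025, minus strand), lay between 532 and 655 CPM in WT (median 629) and 531 and 767 CPM in WWP2Mut/Mut mice (median 646), with a log2 fold change of 0.06 (SE 0.0995). Pygm (chr19:6384399-6398459, plus strand) lay between 892 and 1186 CPM in WT (median 1005) and 849 and 1178 CPM in WWP2Mut/Mut mice (median 984), with a log2 fold change of -0.02 (SE 0.104).

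By role, 2 of the 4 genes of glucose entry and phosphorylation, 5 of the 10 of upper glycolysis, 2 of the 7 of lower glycolysis, 2 of the 4 lactate genes, 2 of the 4 pyruvate dehydrogenase genes and 3 of the 3 glycogen genes had a lower estimate in WWP2Mut/Mut mice. Across all 32 the estimates ran from -0.21 for Pfkp to 0.14 for Pgam2. Leaving out each mouse in turn moved the number of genes with a lower estimate between 10 and 25, the extremes being reached without WWP2Mut/Mut mice 24-3 (10 genes) and 53-1 (25 genes), so that the balance of signs rested on single libraries. Without covariates it was 10. The widest interval was that of Aldoc, -0.74 to 0.87, whose counts were too few to detect a difference below that size.

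**Figure D3:**
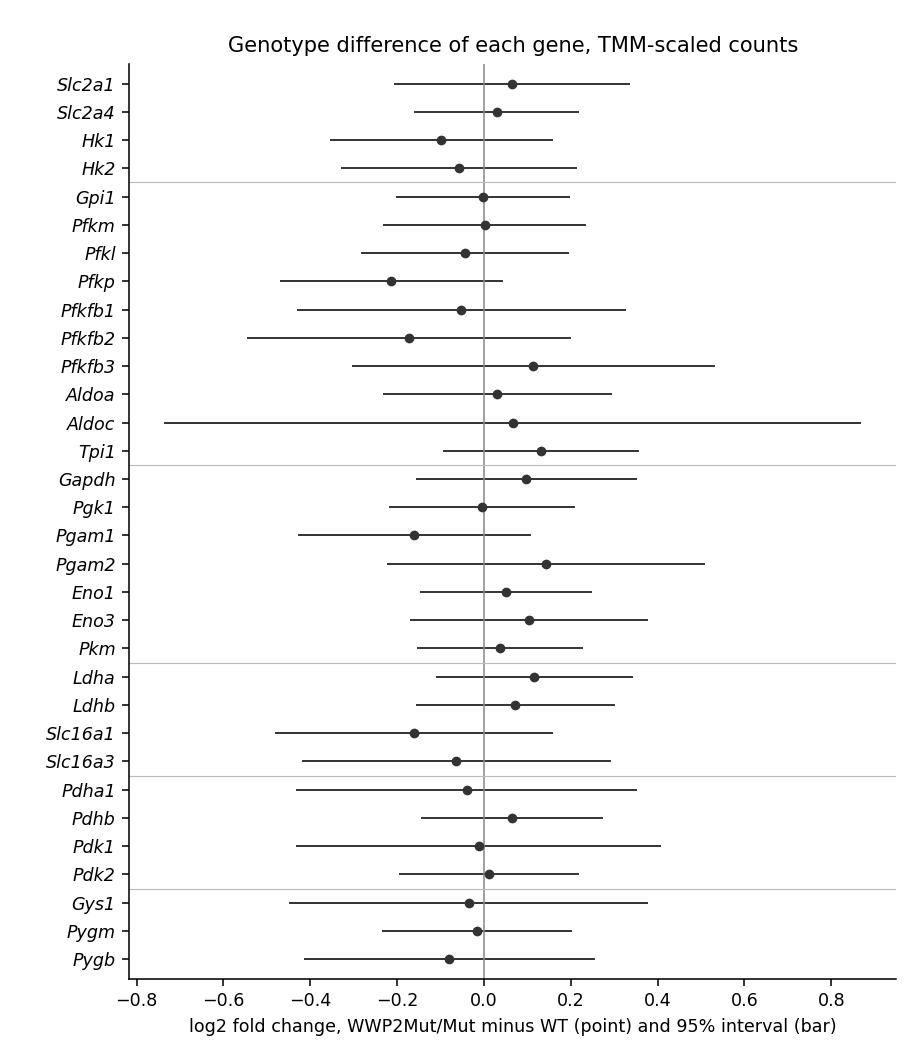
Log2 fold change of each of the 32 genes, WWP2Mut/Mut minus WT (horizontal axis, point), with its 95% interval (bar) from the edgeR fit, genes grouped by step on the vertical axis. Every interval includes 0, and the points lie between -0.21 and 0.14.

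The counts of several genes varied between mice with bottom-half coverage. To measure this, counts were regressed on coverage, scaled to its SD of 0.00821, with genotype in the model (edgeR quasi-likelihood test). Of the 32 genes, 9 fell and 5 rose with coverage at an adjusted p below 0.05, where 17.3% of all genes fell and 17.8% rose. Both directions together, coverage was related to 35.1% of all genes, so that the relation was not particular to these 32. The relation was looked for after the data had been seen.

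The genes that fell with coverage were Pdk1, which encodes a kinase that inhibits pyruvate dehydrogenase (slope -0.35 log2 units per SD, SE 0.0369), Gys1, the muscle glycogen synthase (-0.34, SE 0.0452), Pdha1, the alpha subunit of E1 (-0.32, SE 0.0389), Slc16a1 (-0.23, SE 0.0418), Pygb (-0.21, SE 0.0511), Hk1 (-0.15, SE 0.0418), Pfkp (-0.14, SE 0.0450), Slc2a1 (-0.14, SE 0.0482) and Hk2 (-0.13, SE 0.0451). Those that rose were Pgam2 (0.25, SE 0.0469), Aldoa (0.13, SE 0.0392), Eno3 (0.12, SE 0.0443), Gpi1, the glucose-6-phosphate isomerase (0.09, SE 0.0288), and Eno1 (0.09, SE 0.0294). Pdk1, for example, ran from 83.4 CPM in WWP2Mut/Mut mouse 52-1, whose coverage was 0.0526, to 205 CPM in WWP2Mut/Mut mouse 33-1, whose coverage was 0.0316. The slopes of Pdk1, Gys1, Pdha1, Slc16a1 and Pgam2 kept their sign and an adjusted p below 0.05 within WT mice alone and within WWP2Mut/Mut mice alone, and without the 2 mice farthest from the median coverage. With lane and RNA concentration in the model, 8 genes fell and 4 rose, while 30.9% of all genes were related to coverage, and Slc2a1 (adjusted p = 0.0836) and Eno3 (adjusted p = 0.0528) were no longer called (edgeR quasi-likelihood test). With coverage as a further covariate, no gene of the 32 differed between genotypes at an unadjusted p below 0.05.

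**Figure D4:**
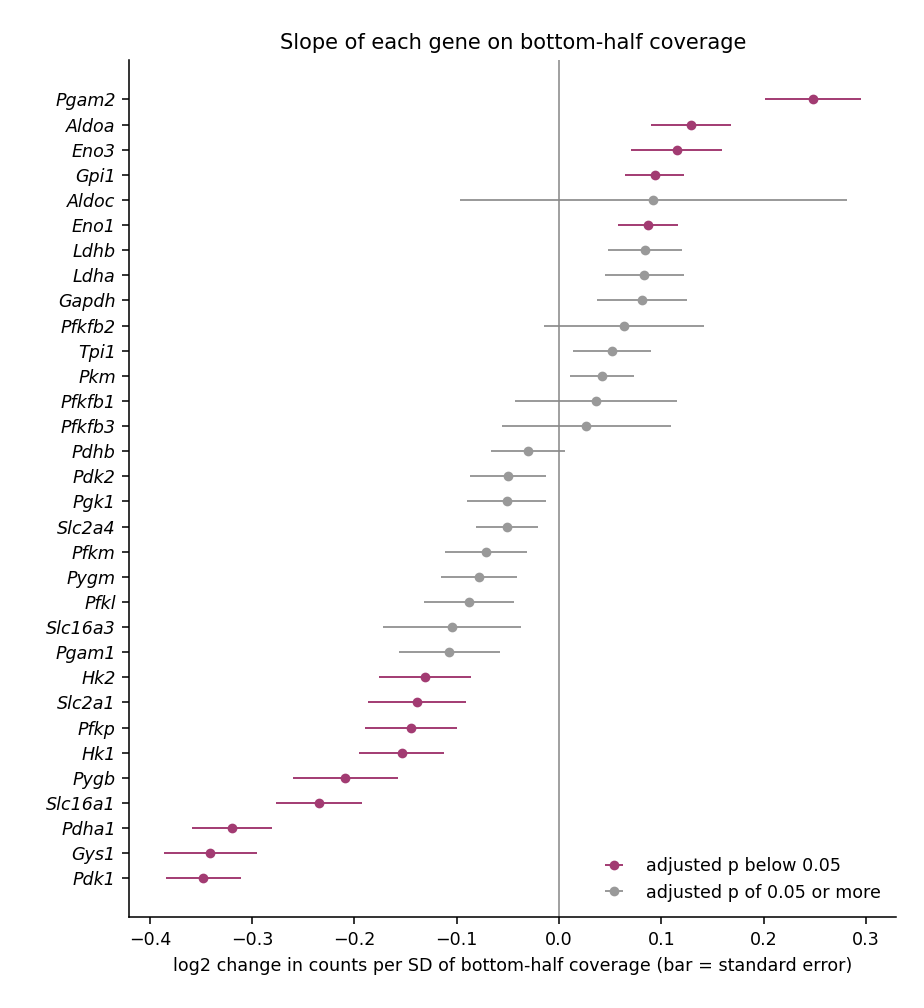
Slope of each of the 32 genes on bottom-half coverage, in log2 units of counts per SD of coverage (horizontal axis), with its standard error as a bar, sorted by slope; purple points have an adjusted p below 0.05. Pdk1, Gys1 and Pdha1 lie below -0.3 and Pgam2 lies highest at 0.25.

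For a few genes TPM and counts disagreed between mice. The expected count of a gene divided by its TPM gives the effective transcript length that the quantification used, up to a factor for the library, and this was taken relative to the median of 4717 well-counted genes (over 500 counts in every mouse) and to the gene's own median. For 27 of the 32 genes that passed the count limit, the ratio of the highest to the lowest mouse had a median of 1.08, against 1.115 over the well-counted genes. It exceeded 1.5 for 4 genes: Hk2 (5.08), Pygm (1.90), Ldhb (1.61) and Gpi1 (1.57), while 12.8% of the well-counted genes exceeded it. A value as large as that of Hk2 was found for 2 of the 4717 genes, Hk2 among them.

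Hk2, the insulin-responsive hexokinase of muscle, was at 39.2 TPM in WT mouse 43-3 and at 115 TPM in WT mouse 94-2. On the CPM scale the same 2 libraries held 219 and 220.3 CPM, and WT mice as a group ran from 188 to 275 CPM (median 205) and WWP2Mut/Mut mice from 157 to 289 CPM (median 194). Its relative count per TPM fell from 2.48 in WT mouse 43-3, which had the lowest coverage, to 0.49 in WT mouse 16-1, which had the highest. Over the 18 mice this ratio was inversely related to bottom-half coverage for Hk2 (r = -0.93, rho = -0.97), Pygm (r = -0.95, rho = -0.96), Ldhb (r = -0.92, rho = -0.80) and Gpi1 (r = -0.92, rho = -0.93). The permutation p of r was 1e-05 for each of the 4 genes examined, the smallest that 100000 permutations can give, and the permutation p of rho was 1e-05 for 3 of them and 0.00015 for Ldhb, with adjusted values of 1e-05 for r and 1.33e-05 to 0.00015 for rho. Without the 2 mice farthest from the median coverage, r lay between -0.95 and -0.87, and within each genotype it lay between -0.97 and -0.89.

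A relation of this strength was common and ran in both directions. Of the 4717 well-counted genes, 33.7% had an r of at least 0.9 in size between relative count per TPM and coverage (277 negative, 1311 positive), and among the 603 whose ratio exceeded 1.5 it was 46.6% (169 negative, 112 positive). The 4 genes above were picked for their ratio. Among the other 23 of the 27 genes, 13 had an r of at least 0.9, all positive, with Slc2a4, the insulin-responsive glucose transporter, highest (r = 0.98), but their ratios of highest to lowest mouse were smaller, 1.14 for Slc2a4. These counts are given as a description, since genes of 1 library share its coverage.

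The annotation (GENCODE M21, GRCm38) lists 4 transcripts of Hk2 (chr6:82725025-82774454, minus strand), with spliced lengths of 5513, 594, 505 and 2792 bases. The transcript of 594 bases (chr6:82725062-82726309) is annotated as non-coding and lies wholly inside the end of the longest one. How the reads were divided between these transcripts was not analysed here, and the part of this division in the TPM of Hk2 was not tested. Hk1 exceeded Hk2 in 2 of 18 mice by TPM and in 1 by counts.

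**Figure D5:**
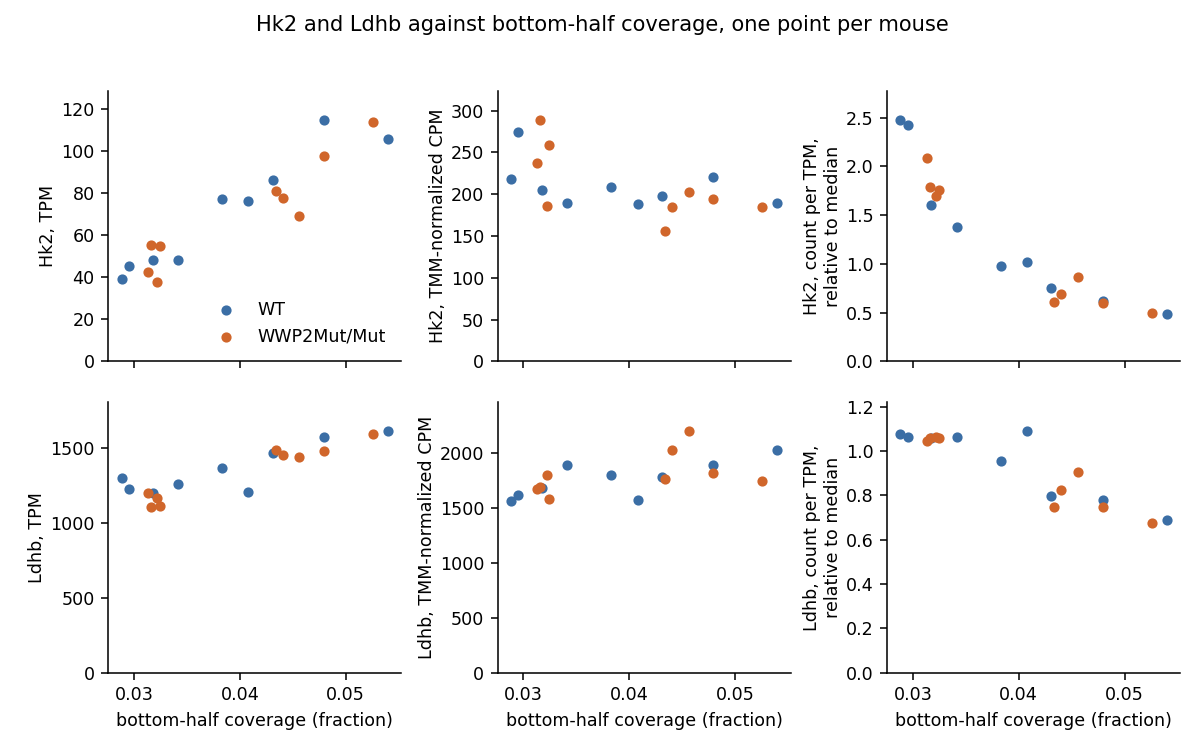
Hk2 (upper row) and Ldhb (lower row) in each of the 18 mice against bottom-half coverage (horizontal axis), as TPM, as TMM-normalized CPM and as the expected count per TPM relative to its median, with vertical axes from 0. Hk2 TPM rises from 39.2 at the lowest coverage to 106 at the highest, its CPM does not rise, and its count per TPM falls from 2.48 to 0.49.

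Whether the isozymes of a step vary together was examined over the 18 mice for the same 11 steps, as the correlation of log2(TPM + 1) between the main isozyme and its leading partner, with permutation p adjusted over the 11 pairs. The 496 pairs of the 32 genes had a median r of 0.43 on this scale and of 0.05 on the log2 CPM scale, so that the level of correlation between any 2 of them depended on the scale. Correlations were highest for Pdk1 and Pdk2 (r = 0.89, permutation p = 1e-05, the smallest that 100000 permutations can give, adjusted 5.5e-05, and rho = 0.85, adjusted 0.00011), Pfkm and Pfkl (r = 0.88, permutation p = 1e-05, adjusted 5.5e-05, and rho = 0.88, adjusted 0.00011) and Slc2a4 and Slc2a1 (r = 0.84, permutation p = 5e-05, adjusted 0.000183, and rho = 0.82, adjusted 0.00033). These 3 pairs remained positive at an adjusted p below 0.05 with log2 CPM in place of TPM (r = 0.59, 0.62 and 0.64) and without the 2 mice farthest from the median (r = 0.85, 0.87 and 0.78). Within WT mice r was 0.83, 0.89 and 0.82 and within WWP2Mut/Mut mice 0.97, 0.87 and 0.88. With bottom-half coverage removed, it was 0.71, 0.72 and 0.52, the last at an adjusted permutation p of 0.066.

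For 3 pairs the sign depended on the scale. Hk1 and Hk2 were inversely related by TPM (r = -0.66, permutation p = 0.00312, adjusted 0.00686, and rho = -0.66, adjusted 0.00763) and directly related by log2 CPM (r = 0.62, adjusted permutation p = 0.0106). The inverse relation by TPM did not pass the threshold within WWP2Mut/Mut mice (r = -0.63, adjusted permutation p = 0.183) or without the 2 mice farthest from the median (r = -0.55, adjusted permutation p = 0.066), and its sign turned with coverage removed (r = 0.35, adjusted permutation p = 0.203). Ldhb and Ldha had r = -0.26 and rho = -0.28 by TPM (adjusted permutation p = 0.406) and r = 0.77 and rho = 0.77 by log2 CPM (adjusted permutation p = 0.00099), and with bottom-half coverage removed from the TPM values the pair also rose and fell together (r = 0.71, adjusted permutation p = 0.00451). Pygm and Pygb had r = -0.20 by TPM (adjusted permutation p = 0.511) and r = 0.83 by log2 CPM (adjusted permutation p = 0.00055), and with coverage removed r was 0.58 (adjusted permutation p = 0.0308). Of the remaining 5 pairs, Slc16a1 with Slc16a3 (r = 0.73, permutation p = 0.00066, adjusted 0.00181, and rho = 0.69, adjusted 0.0049) and Pfkfb2 with Pfkfb1 (r = 0.53, permutation p = 0.0246, adjusted 0.0451, and rho = 0.44, adjusted 0.131) passed the threshold for r by TPM and not by log2 CPM. Neither passed it with coverage removed (r = 0.10, adjusted permutation p = 0.684, and r = 0.47, adjusted permutation p = 0.0893) or within WWP2Mut/Mut mice (adjusted permutation p = 0.183 for both), and Pfkfb2 with Pfkfb1 did not without the 2 mice farthest from the median (adjusted permutation p = 0.0797) or within WT mice (adjusted permutation p = 0.281). Eno3 with Eno1 passed it by log2 CPM alone (r = 0.69, adjusted permutation p = 0.00568), and Aldoa with Aldoc and Pgam2 with Pgam1 on neither scale.

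The wider pathway was represented by 96 further genes in 8 lists, of which 93 were tested. None was called at an adjusted p below 0.05 (0.00403% of all genes), and 8 had an unadjusted p below 0.05, beside 3.66% of all genes. The number was 5 without WWP2Mut/Mut mouse 8-2, 4 without covariates and 3 with lane alone as covariate. The 8 were 1 of the 10 tested genes of other glycolytic isozymes and regulators, 2 of 7 of gluconeogenesis, 3 of 19 regulators, 1 of 8 lactate and pyruvate carriers and 1 of 20 of glycogen. There were 0 of 10 among glucose transporters and hexokinases, 0 of 9 among the pyruvate dehydrogenase complex and 0 of 10 among the pentose phosphate and hexosamine genes. Of 7 tested genes listed as relatives of the 32, 0 were called and 1 had an unadjusted p below 0.05, the pseudogene Pgk1-rs7 (unadjusted p = 0.0422), whose reads could not be told apart from those of Pgk1 over their shared sequence.

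Estimates were lower in WWP2Mut/Mut mice for Pklr, the liver and red cell pyruvate kinase (log2 fold change -2.75, SE 0.902, unadjusted p = 0.00682), Fbp1, the gluconeogenic fructose-1,6-bisphosphatase (-2.15, SE 0.738, unadjusted p = 0.00925), and Pck1, the phosphoenolpyruvate carboxykinase of liver and kidney (-2.13, SE 0.742, unadjusted p = 0.0102). These 3 genes were scarce, with WT means of 0.098 ± 0.15 TPM for Pklr, 1.117 ± 1.37 for Fbp1 and 0.94 ± 1.41 for Pck1. WT mouse 45-1 held the highest value of each, 0.48 TPM for Pklr, 4.42 for Fbp1 and 4.48 for Pck1. Without it, the log2 fold changes were -1.58 (unadjusted p = 0.0931), -1.39 (unadjusted p = 0.0866) and -1.36 (unadjusted p = 0.0693). The same mouse held the highest summed level of 10 liver markers, 400 TPM, within 30.1 to 400 TPM in WT (median 119) and 28.2 to 104 TPM in WWP2Mut/Mut mice (median 49.4). All 10 liver markers, albumin among them, had a lower estimate in WWP2Mut/Mut mice with an unadjusted p below 0.05, and none was called. Over the 18 mice the TPM of each of the 3 genes rose with the summed liver markers, with r = 0.99 and rho = 0.95 for Fbp1 (permutation p = 1e-05 for both, the smallest the permutations can give, adjusted 3e-05), r = 0.93 (permutation p = 0.00016, adjusted 0.00024) and rho = 0.87 (adjusted permutation p = 3e-05) for Pck1, and r = 0.92 (permutation p = 0.0003, adjusted 0.0003) and rho = 0.85 (adjusted permutation p = 4e-05) for Pklr, adjusted over the 3 genes. Without the 2 mice farthest from the median liver sum, r was 0.95, 0.82 and 0.81 in the same order. Within genotypes it was 0.99, 0.93 and 0.93 in WT and 0.92, 0.63 and 0.61 in WWP2Mut/Mut mice. This relation, too, was looked for after the data had been seen.

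Myc, a transcription factor that drives glycolytic genes in growing cells, was at 1.60 ± 0.71 TPM in WT and 1.08 ± 0.32 TPM in WWP2Mut/Mut mice (log2 fold change -0.54, SE 0.188, unadjusted p = 0.01), and its unadjusted p was 0.0502 without WWP2Mut/Mut mouse 53-1. Estimates were higher for Arrdc4, an arrestin induced by glucose (0.29, SE 0.118, unadjusted p = 0.0251), and Phkg1, the muscle catalytic subunit of phosphorylase kinase (0.35, SE 0.160, unadjusted p = 0.0439), and neither kept an unadjusted p below 0.05 without WWP2Mut/Mut mouse 52-1 (0.132 and 0.188). By TPM the genotypes were close, at 2.66 ± 0.47 in WT and 2.69 ± 0.37 in WWP2Mut/Mut mice for Arrdc4 and 4.99 ± 1.35 and 5.15 ± 1.40 for Phkg1. The estimate was also lower for Txnip, an arrestin that restrains glucose uptake, at 147 ± 33.6 TPM in WT and 132 ± 44.99 TPM in WWP2Mut/Mut mice (-0.44, SE 0.155, unadjusted p = 0.0112), but its log2 fold change was -0.04 without covariates and -0.13 with lane alone. Slc16a4 falls outside the rule for naming and is named after its values were seen. This monocarboxylate carrier relative was at 0.29 ± 0.10 and 0.19 ± 0.07 TPM (-0.67, SE 0.307, unadjusted p = 0.0433), and its unadjusted p was 0.14 without WWP2Mut/Mut mouse 24-3.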

How the data were processed

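RNA-seq libraries of LV poly(A) RNA from 9 WT and 9 WWP2Mut/Mut mice, separate animals, were analysed by the genotype in their labels. The results text of the study gives 8 mice per genotype and its methods 9, and all 18 were used. Alignment by the authors used STAR 2.5.2b and mouse build m38, and RSEM 1.2.31 gave a value for each Ensembl 89 gene. Genes of rRNA and of mitochondria had been taken out. The authors deposited expected counts, which need not be whole, and TPM, which summed to 671770 to 826381 per mouse. The deposited metadata gave lane, RNA concentration and a fraction for the bottom-half section of the gene body, called bottom-half coverage here. Gene IDs were matched to symbols for 51242 of 51435 genes. From the rounded expected counts, genotype was tested with edgeR 4.0.16 (TMM, glmQLFit, glmQLFTest) over genes with a total above 1, with lane and centred RNA concentration as covariates and Benjamini-Hochberg adjustment. Alternatives were DESeq2 1.42.0, other size factors, filters and covariates, limma 3.58.1 on log2(TPM + 1) or log2(TPM + 0.1), and leaving out each mouse. Shares were compared over the 48620 divisions of the mice, and within lanes over 3600. On counts simulated for this comparison over 24099 genes, 78% of genes changed by 1 log2 unit and 20% or 24% of those lowered or raised by 0.5 were called. Copies, with limits chosen after the data were seen, were BLAST matches of at least 95% identity over 150 bases (BLAST+ 2.17.0). The genes and lists were chosen with earlier results of these data known, and a gene of the wider pathway is not reported here. Named genes were those with an unadjusted p below 0.05 or, where fewer than 6, the 6 with the smallest p, the most abundant of each role, and up to 5 genes per direction of the wider pathway. Markers of 11 cell types or states were also examined.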

Additional observations from a re-analysis of the deposited data

Results flagged for a closer look

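In groups of 9 mice, the gap between an extreme mouse and its nearest neighbour was set against the range of the group by Dixon's test. Of 104 groups examined, 15 were picked out (14.4%), where chance alone gives about 1 in 20. WT mouse 25-3 was the highest WT mouse for Hk2 (275 CPM, the next 220.3), Pfkl (154 CPM, the next 120.5) and Pfkp (106 CPM, the next 74.0), and the lowest for the share of Pfkm (81.2%, the next 84.8%). WT mouse 45-1 was the highest for Pfkm (1064 CPM, the next 914) and the lowest for Tpi1 (624 CPM, the next 756), Pgk1 (330 CPM, the next 411) and Pdhb (532 CPM, the next 605). The same mouse was the highest for Pklr (0.48 TPM, the next 0.12), Fbp1 (4.42 TPM, the next 1.58) and Pck1 (4.48 TPM, the next 1.64). Among WWP2Mut/Mut mice, 52-1 was the highest for Pfkfb2 (81.4 CPM, the next 52.8), Phkg1 (8.38 TPM, the next 5.92) and Wwp2 (3.00 TPM, the next 1.90), and 24-3 the lowest for the share of Pfkm (83.1%, the next 85.6%). The 15 groups are not independent, since 4 mice account for all of them.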

How the results depend on the processing

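No gene of the 32 or of the wider pathway was called under any of the alternatives run, the smallest adjusted p of a named gene being 0.369 with Wwp2 left aside. Of 550 values of single genes under alternatives, 463 stayed within 1 SE of the value reported. The number of the 32 with an unadjusted p below 0.05 was 1 with limma on log2(TPM + 1) and 0 to 1 when each mouse was left out. The number with a lower estimate was 10 without covariates, 10 with lane alone, 29 with limma on log2(TPM + 1) or log2(TPM + 0.1), 30 with limma on TPM rescaled to a common sum, and 10 to 25 when each mouse was left out. Their median log2 fold change was -0.16 with limma on log2(TPM + 1) or log2(TPM + 0.1), -0.17 with rescaled TPM and -0.05 to 0.04 when each mouse was left out. In the wider pathway, the number with an unadjusted p below 0.05 was 4 without covariates, 3 with lane alone, 4 with rescaled TPM and 5 to 9 when each mouse was left out, 5 being the number without WWP2Mut/Mut mouse 8-2. The cause was not tested. The difference in RNA concentration, 64.9 ng/µl with all mice, was 51.4 ng/µl without WT mouse 43-3, an alternative chosen after the data were seen. With filterByExpr 31 of the 32 were tested, Aldoc being dropped.

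Among isozyme pairs, log2 CPM gave r = 0.62 for Hk1 and Hk2, 0.77 for Ldhb and Ldha, 0.83 for Pygm and Pygb, 0.69 for Eno3 and Eno1, 0.24 for Slc16a1 and Slc16a3 and 0.20 for Pfkfb2 and Pfkfb1. With bottom-half coverage removed, an alternative chosen after the data were seen, r was 0.52 for Slc2a4 and Slc2a1, 0.35 for Hk1 and Hk2, 0.43 for Pgam2 and Pgam1, 0.12 for Eno3 and Eno1, 0.71 for Ldhb and Ldha, 0.10 for Slc16a1 and Slc16a3, 0.58 for Pygm and Pygb and 0.47 for Pfkfb2 and Pfkfb1. Within WWP2Mut/Mut mice r was -0.63 for Hk1 and Hk2, -0.22 for Aldoa and Aldoc, -0.48 for Pgam2 and Pgam1, 0.12 for Eno3 and Eno1, 0.61 for Slc16a1 and Slc16a3, -0.56 for Pygm and Pygb and 0.57 for Pfkfb2 and Pfkfb1, and within WT mice 0.060 for Pygm and Pygb and 0.47 for Pfkfb2 and Pfkfb1. Without the 2 mice farthest from the median it was -0.55 for Hk1 and Hk2 and 0.51 for Pfkfb2 and Pfkfb1. Of the 32 genes, 4 fell with coverage without the 2 mice farthest from the median coverage, 5 within WT and 5 within WWP2Mut/Mut mice, and 1 rose within WT and 1 within WWP2Mut/Mut mice. These last fits hold fewer mice. No paired analysis was possible because the mice carry individual numbers that the genotypes do not share.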
